A study of Homo sapiens with 15 samples.

Results

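The ATP-binding cassette (ABC) family was followed in Caco-2, a human cell line of epithelial type that derives from a carcinoma of the colon, over 15 treatments read on 1 Affymetrix array each. Members were the genes whose annotated symbol is ABC, a subfamily letter from A to G and a number, without pseudogenes, which gave 41 of the 19775 genes on the array. Among probe sets annotated to a single gene, the one with the highest average on the 15 arrays stood for each member. The values are on a log2 scale, so a difference of 1 is 2-fold, and a value under 5 was taken as not measurably above background. By this limit 18 members were measurable on at least 1 array, and the same 18 passed the signal filter (at least 5 on at least 4 of the 12 arrays of fluid-treated cells) that left 8737 genes to test. The other 23 members never reached 5, with a highest value of 4.26 for ABCB9.

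The cells were used before differentiation and were kept for 24 h in serum-free medium with 1 of 15 additions. One array had 5 mM butyrate, a short-chain fatty acid made by gut bacteria, 1 had 100 mM NaCl, and 1 had medium alone. The other 12 had 10% by volume of cell-free fluid from a simulator of the colon, in which polydextrose, a glucose polymer that is poorly digested, was fermented for 48 h at 0%, 1% or 2%. The fluid was taken from each of the simulator's 4 connected vessels, of which vessel 1 stands for the ascending colon, vessel 2 for the transverse, vessel 3 for the descending and vessel 4 for the sigmoid part and rectum. All 15 cultures were of the same cell line, which is a carcinoma line and not normal colon epithelium, and the 0% fluid is itself a fermentation fluid without added polydextrose. The labels list 1 simulation per concentration, so a simulation and its concentration cannot be told apart, and p-values measure only the spread among these arrays.

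ABC proteins share a domain that binds and splits ATP, and most use that energy to move lipids, bile salts, drugs or conjugates across a membrane. In the intestinal epithelium some pump drugs and conjugates back into the lumen (ABCB1, ABCC2, ABCG2) or towards the blood (ABCC1, ABCC3), and others move sterols and phospholipids (ABCA1, ABCG1, ABCG5, ABCG8). The subfamilies E and F have the ATP-binding domains without membrane-spanning parts and act on ribosomes and translation.

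The arrays were alike in overall signal, with 42.3% to 44.1% of genes at 5 or more and 14 to 18 members at 5 or more per array. Of 8 epithelial and intestinal markers, 5 (EPCAM, CDH1, KRT8, KRT18 and KRT19) were at 5 or more on all 15 arrays, whereas VIL1, CDX1 and CDX2 were under 5 on all of them. All 3 endothelial, all 3 leukocyte and all 4 liver markers were under 5 on all arrays. Of 5 markers of enterocyte differentiation 4 were under 5 on all arrays. The other, DPP4, read 6.13 with butyrate, 3.69 with NaCl, 5.38 with medium and 6.57 to 7.12 in the fluids. The 3′ minus 5′ signal of ACTB, a measure of RNA integrity that is larger for shorter RNA, was 0.951 for medium and 0.924 for 1% fluid from vessel 1, and 0.366 to 0.726 on the other 13 arrays. These are whole cultures, so fewer cells of a kind and less RNA per cell cannot be told apart in any value below.

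Butyrate and the fermentation fluids gave higher signals of the lipid exporter ABCA7 and the drug pump ABCB1 than medium, with lower signals of the mitochondrial ABCB10 and of ABCE1 and ABCF2, which act in translation. The sterol exporter ABCG1 was higher in them too, but also with NaCl (7.78), so it was low only on the single medium array. Among the fluids, those of 2% polydextrose gave more ABCG1, ABCA5 and ABCA7 and less ABCB10 and ABCE1 than those of 0%. Vessel 1 differed from the later vessels in the opposite sense, with less ABCG1 and ABCA5 and more ABCB10 and ABCE1. ABCC3 was also higher in vessel 1, though most of its later values were under 5. The plot of all 18 measurable members shows these blocks.

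**Figure D1:**
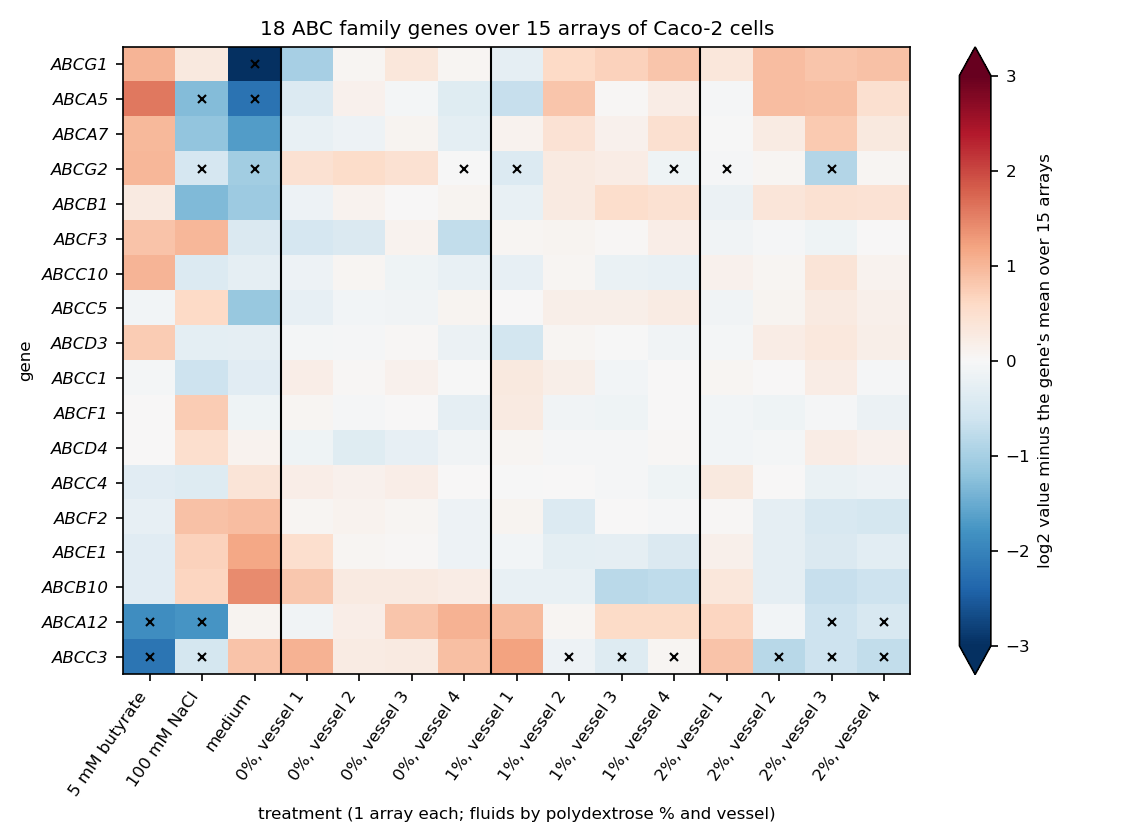
Log2 value of 18 members minus each gene's mean over the 15 arrays (colour), one column per array, with a cross where the value was under 5. ABCG1, ABCA5 and ABCA7 lie above their means under butyrate and mostly in 2% fluid and below them in medium, and ABCB10 and ABCE1 show the reverse.

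Promoter windows of 4 members that changed at 2% against 0% are given first, 2 that rose and 2 that fell, so that their letters can be set beside the direction of change. They are the 250 bases before the RefSeq gene start on GRCh38.p14, read 5′ to 3′ along the gene, with GC boxes (GGGCGG or its complement CCGCCC) and CCAAT boxes (CCAAT or ATTGG) in capitals. ABCA5 (chr17:69327134-69327383, minus strand) and ABCA7 (chr19:1039857-1040106, plus strand) rose with 2% polydextrose, and ABCB10 (chr1:229558708-229558957, minus strand) and ABCE1 (chr4:145098061-145098310, plus strand) fell.
ABCA5: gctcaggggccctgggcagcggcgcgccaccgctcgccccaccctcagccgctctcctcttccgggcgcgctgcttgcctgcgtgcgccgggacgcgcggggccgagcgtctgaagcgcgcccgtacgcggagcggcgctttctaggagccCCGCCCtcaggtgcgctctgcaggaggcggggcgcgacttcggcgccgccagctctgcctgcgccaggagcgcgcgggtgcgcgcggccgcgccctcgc
ABCA7: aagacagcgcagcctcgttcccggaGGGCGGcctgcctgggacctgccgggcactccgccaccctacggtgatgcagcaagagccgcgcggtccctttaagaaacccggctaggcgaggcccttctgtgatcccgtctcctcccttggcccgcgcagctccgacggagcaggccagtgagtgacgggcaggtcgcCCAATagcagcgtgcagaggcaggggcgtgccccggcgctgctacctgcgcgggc
ABCB10: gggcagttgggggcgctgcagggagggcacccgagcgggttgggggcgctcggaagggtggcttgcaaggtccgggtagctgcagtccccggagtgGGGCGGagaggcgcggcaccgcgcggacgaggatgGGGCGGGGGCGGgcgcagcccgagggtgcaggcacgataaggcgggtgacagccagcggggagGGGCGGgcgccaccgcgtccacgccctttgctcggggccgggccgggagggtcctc
ABCE1: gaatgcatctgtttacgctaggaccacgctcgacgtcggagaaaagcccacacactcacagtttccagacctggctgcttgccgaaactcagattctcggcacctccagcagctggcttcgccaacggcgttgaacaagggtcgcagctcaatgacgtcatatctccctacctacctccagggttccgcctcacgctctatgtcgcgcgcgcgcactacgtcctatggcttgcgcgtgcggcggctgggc
The ABCB10 window holds 4 GC boxes, those of ABCA5 and ABCA7 hold 1 each, and that of ABCE1 holds none. The ABCA7 window alone of the 4 holds a CCAAT box. The share of G and C was 79.2% for ABCA5, 70.4% for ABCA7, 77.2% for ABCB10 and 60.0% for ABCE1, beside a median of 58.0% over 27305 genes. RefSeq windows were matched for 33 of the 41 members and 15 of the 18 measurable ones, and ABCG1, ABCC1 and ABCC3 were not among them. A GC box on either strand was in 10 of these 15 windows and in 42.3% of all windows. A CCAAT box was in 2 of 15 and 33.0% of all, and a TATA box (TATAAA) in 1 of 15 and 11.1% of all. The E-box CACGTG was in 1 of 15 and 6.49% of all, and the core of the antioxidant response element (TGACNNNGC) in 3 of 15 and 11% of all. The direct repeat read by liver X receptors (DR4) was in 0 of 15 and in 0.0146% of all. These are matches of letters in a short window and say nothing on binding.

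With butyrate, 11 of the 15 members bright enough to compare (6 or more on the brighter array) differed at least 2-fold from medium, 8 higher and 3 lower. Over all genes compared the share was 31.2%, with 15.6% higher and 15.6% lower. The members' median difference was 1.02, beside 0.004 for all genes. With NaCl 3 of 13 members were at least 2-fold above medium and 0 were below, beside 16.6% of all genes (8.93% higher, 7.67% lower), and the median was -0.05 beside 0.018 for all genes. Both comparisons rest on single arrays against the same medium array, so they have no error and no test. The medium array had the largest ACTB 3′ minus 5′ signal (0.951, beside 0.585 with butyrate and 0.641 with NaCl). The part of this in any difference from medium was not tested.

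**Figure D2:**
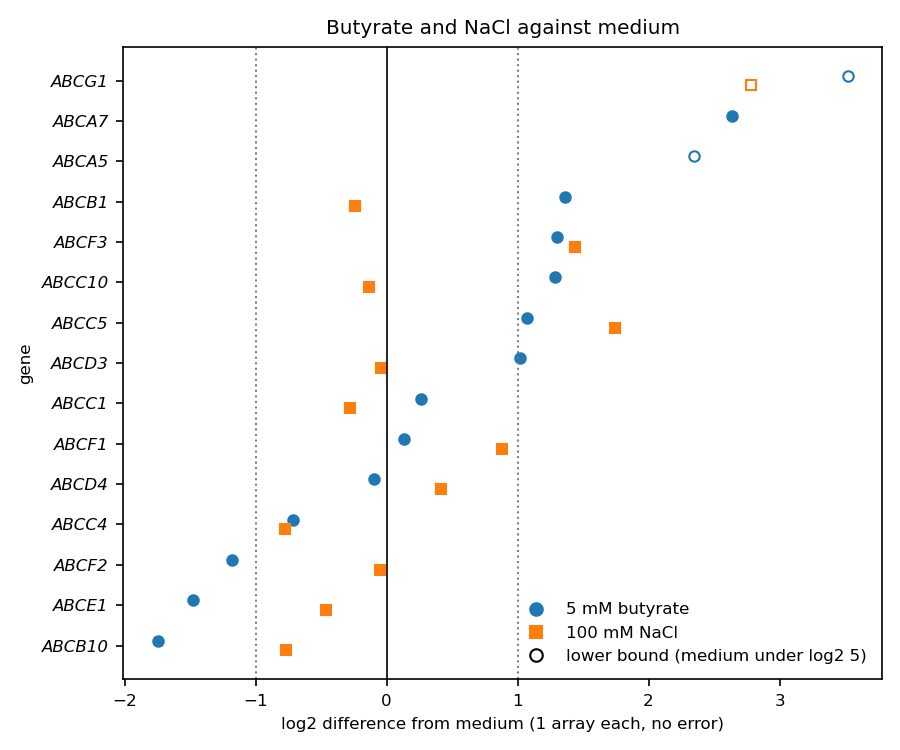
Log2 difference from medium of 5 mM butyrate (circles) and 100 mM NaCl (squares), 1 array each, with open symbols for lower bounds where medium was under 5 and dotted lines at 2-fold. Butyrate values run from -1.75 for ABCB10 to a bound of 3.52 for ABCG1, and NaCl lies within 2-fold for all but ABCG1, ABCC5 and ABCF3.

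The mean of the 4 vessels at 0% polydextrose was at least 2-fold from medium for 6 of 13 members, 4 higher and 2 lower, beside 12.6% of all genes compared (7.81% higher, 4.8% lower). At 1% it was 7 of 14 members, 4 higher and 3 lower, beside 19.7% (10.8% higher, 8.88% lower). At 2% it was 8 of 14 members, 5 higher and 3 lower, beside 23.2% (11.7% higher, 11.4% lower). The members past 2-fold in all 3 fluids were ABCG1, ABCA7, ABCB1 and ABCC5, all higher, and ABCB10 and ABCE1, both lower. ABCF2 was lower past 2-fold at 1% and 2%, and ABCA5 higher at 2%. These 3 comparisons use the same medium array as the butyrate one, so they are not independent of it or of each other.

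Polydextrose at 2% against 0% was tested with limma across the 12 fluid arrays, with vessel as a block. Of the 18 members tested 7 passed at an adjusted p under 0.05, 4 higher and 3 lower, beside 20.8% of all 8737 genes (9.65% higher, 11.2% lower). The 7 include ABCC3, which passed the filter on low signal only through the 0% arrays, so that its call is a description. The members' median difference was 0.08, beside -0.01 for all genes. At 1% against 0% 3 of 18 passed, 1 higher and 2 lower, beside 4.78% of all genes (2.63% higher, 2.15% lower). At 2% against 1% 0 of 18 members and 0% of all genes passed. An unadjusted p under 0.05 was found for 5 of the 18 members, beside 1608 of the 8737 genes. For 2% against 0% the 4 arrays of each concentration did not overlap for 2 of 18 members (ABCG1 and ABCD4, both higher at 2%), beside 4.89% of all genes (2.29% higher, 2.6% lower). For 1% against 0% they did not overlap for 4 members (ABCA7 and ABCD4 higher, ABCB10 and ABCC4 lower), beside 8.44% (4.75% higher, 3.69% lower). Without vessel in the model 0 of 18 members and 0 of the 8737 genes passed at either concentration. An unadjusted p under 0.05 was reached by 10 members for 2% and 6 for 1%, without a count of all genes to set beside them.

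**Figure D3:**
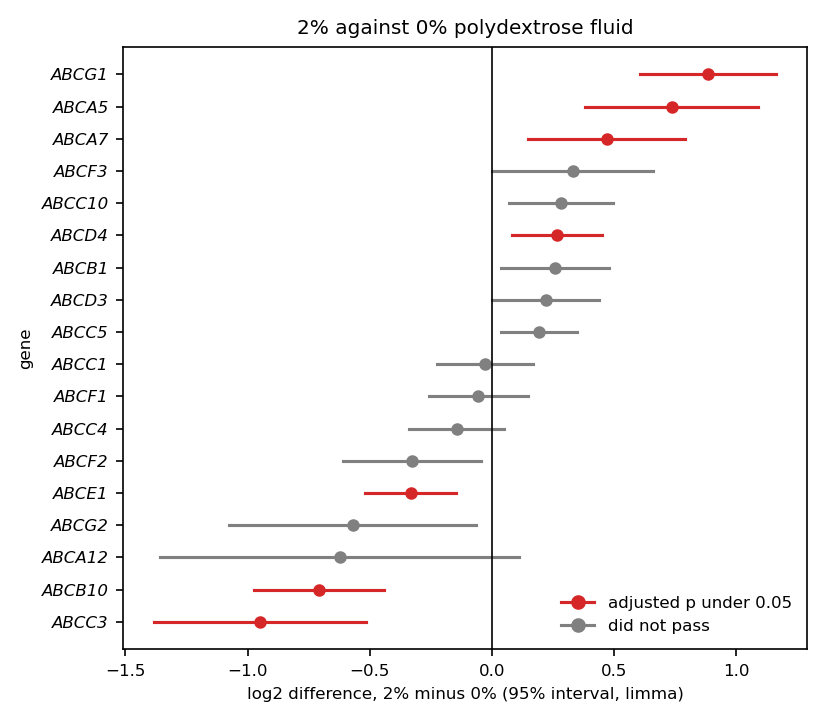
Log2 difference of 2% minus 0% polydextrose fluid for 18 members (points) with 95% intervals from limma (bars), red where the adjusted p was under 0.05. The 7 members that passed run from -0.95 for ABCC3, of which 3 of 4 values at 2% were under 5, to 0.88 for ABCG1.

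Among the lipid and sterol exporters 4 of 15 members were measurable, and 3 of these 4 rose at 2% against 0%, beside 9.65% of all genes. ABCG1, which exports cholesterol to lipoprotein particles, had 8.52 with butyrate, 7.78 with NaCl and 1.87 with medium. Medium is under the limit of 5, so the difference is at least 3.52 for butyrate (at least 11.5-fold) and at least 2.78 for NaCl. ABCG1 was thus under the limit only in medium, and above it with butyrate, with NaCl and on all 12 fluid arrays. Vessels 1 to 4 gave 6.49, 7.54, 7.83 and 7.54 at 0%, 7.22, 8.10, 8.17 and 8.33 at 1%, and 7.84, 8.40, 8.32 and 8.38 at 2%. Every 2% array lay above every 0% array by a narrow margin (lowest 7.837 at 2%, highest 7.827 at 0%), and vessel 1 was the lowest at each concentration. The fitted difference was 0.88 ± 0.12 (SE) for 2% against 0% (adjusted p = 0.00269) and 0.60 ± 0.12 for 1% against 0% (adjusted p = 0.0319), with a higher value in 4 of 4 vessels for both. The 2% call held in 20 of 21 alternatives, and was lost without vessel in the model. The 1% call held in 10 of 21, and was lost when any array of 1%, vessel 2, 3 or 4 at 0%, or vessel 2 or 4 at 2% was left out (adjusted p = 0.0528 to 0.114). A second ABCG1 probe set was also higher with butyrate (5.30) and NaCl (4.19) than with medium (2.12), though only 3 of its 15 values reached 5.

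ABCA5, a lipid transporter of late endosomes and lysosomes, had 7.35 with butyrate, 4.46 with NaCl and 3.55 with medium, a difference of at least 2.35 for butyrate. Unlike ABCG1 it stayed under 5 with NaCl. In vessels 1 to 4 it had 5.36, 5.91, 5.73 and 5.42 at 0%, 5.08, 6.60, 5.80 and 5.99 at 1%, and 5.73, 6.70, 6.69 and 6.25 at 2%. The 2% and 0% arrays overlapped, because vessel 1 at 2% lay below vessel 2 at 0%. The fitted difference was 0.74 ± 0.16 for 2% against 0% (adjusted p = 0.0141), higher in 4 of 4 vessels, and 0.26 for 1% against 0% (adjusted p = 0.327). The call at 2% was lost when vessel 2, 3 or 4 at 0% or vessel 3 at 2% was left out, with adjusted p of 0.0507 to 0.0601 (limma).

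ABCA7, which moves phospholipids and takes part in phagocytosis, had 8.02 with butyrate, 5.87 with NaCl and 5.38 with medium. The butyrate difference was 2.64, and no other member measurable in medium exceeded it. Its fluid values were 6.83, 6.91, 7.13 and 6.76 at 0%, 7.15, 7.48, 7.17 and 7.52 at 1%, and 7.04, 7.29, 7.83 and 7.34 at 2%. All 12 lay between medium and butyrate. The difference of 2% against 0% was 0.47 ± 0.14 (adjusted p = 0.0457), higher in 4 of 4 vessels, and the call held in 11 of 22 alternatives. It was lost when vessel 2, 3 or 4 at 0% or at 2%, or vessel 1, 2 or 4 at 1%, was left out, with adjusted p of 0.0512 to 0.138. At 1% it was 0.42 (adjusted p = 0.113), although the 1% and 0% arrays did not overlap.

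ABCA12, known as a lipid carrier of skin cells, had 3.35 with butyrate, 3.45 with NaCl and 5.30 with medium, so only medium reached 5. In the fluids it ranged from 4.60 to 6.25, and the 2 values under 5 were those of vessels 3 and 4 at 2%. No comparison of concentrations passed for it, and like ABCG2 it passed the filter on low signal with only part of the fluid arrays. The other 11 members of this group, among them ABCA1, ABCG5 and ABCG8, were under 5 on all arrays. ABCA1, which loads cholesterol onto apolipoprotein A-I, read 2.60 with butyrate, 1.65 with NaCl, 1.73 with medium and 1.97 to 2.82 in the fluids. ABCG5 and ABCG8, which together return sterols to the gut lumen, read 1.45 to 1.94 and 1.51 to 1.99 in the fluids.

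**Figure D4:**
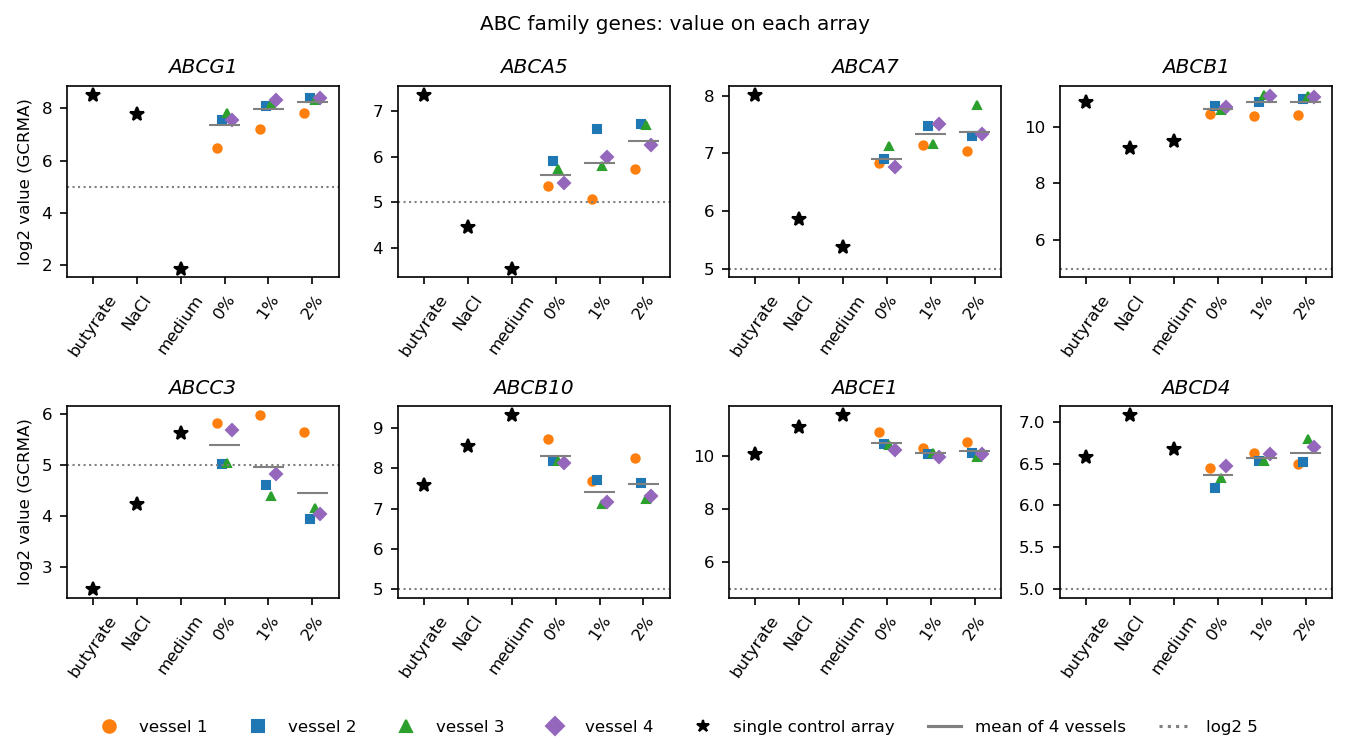
Log2 value on each array for 8 members, with fluids by polydextrose percent and vessel (coloured symbols), the mean of 4 vessels (line), the single control arrays (stars) and the limit of 5 (dotted). ABCG1 stands at 1.87 in medium and between 6.49 and 8.40 in all fluids, and vessel 1 of ABCC3 stays at 5.64 to 5.98 at all concentrations while the later vessels reach 3.95.

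The drug and conjugate exporters had 7 measurable members of 10. At 2% against 0% 0 of these 7 rose and 1 fell, beside 9.65% and 11.2% of all genes. The 1 was ABCC3, whose call rests on values under the limit. ABCB1, the P-glycoprotein that expels many drugs, had 10.87 with butyrate, 9.26 with NaCl and 9.50 with medium. In vessels 1 to 4 it had 10.45, 10.71, 10.60 and 10.69 at 0%, 10.37, 10.86, 11.12 and 11.06 at 1%, and 10.42, 10.97, 11.07 and 11.03 at 2%. All 12 fluids were above medium, by 1.11 on average at 0% and 1.37 at 2%, and vessel 1 was the lowest of the 4 at each concentration. The difference of 2% against 0% was 0.26 ± 0.10 and did not pass (adjusted p = 0.0923). Without the vessel 1 arrays it passed (0.36, adjusted p = 0.0147). A second ABCB1 probe set had 6.55 with butyrate, 3.38 with NaCl (under the limit) and 5.499 with medium, and so read below medium with NaCl by more than the set used. A probe set that matches both ABCB1 and ABCB4 had 10.93 with butyrate, 9.27 with NaCl and 9.65 with medium.

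ABCC3, which exports glucuronides and bile salts towards the blood, had 2.57 with butyrate, 4.24 with NaCl and 5.63 with medium. Its values were 5.82, 5.03, 5.04 and 5.68 at 0%, 5.98, 4.61, 4.39 and 4.83 at 1%, and 5.64, 3.95, 4.16 and 4.04 at 2%. The vessel 1 arrays kept above 5 at all 3 concentrations, and vessels 2 to 4 were under 5 at 1% and 2%. The fitted difference of 2% against 0% was -0.95 ± 0.19 (adjusted p = 0.0116), lower in 4 of 4 vessels, with -0.19 in vessel 1 and -0.88 to -1.64 in the others. With only the 8 arrays compared in the model it did not pass (adjusted p = 0.054). All 4 arrays at 0% but only 1 of 4 at 2% reached the limit, and ABCC3 passed the filter only through the 0% arrays. With values under 5 set to 5, an alternative chosen after seeing the data, the difference was -0.23 and did not pass (adjusted p = 0.224).

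ABCC5, an exporter of cyclic nucleotides, had 7.15 with butyrate, 7.82 with NaCl and 6.08 with medium, a difference of 1.07 for butyrate and 1.74 for NaCl. It was 6.98 to 7.29 at 0%, 7.22 to 7.46 at 1% and 7.12 to 7.49 at 2%, above medium and below NaCl on all 12 arrays. A second ABCC5 probe set, under 5 on 14 of 15 arrays, read lower with butyrate (3.58) than with medium (4.51). ABCC10, which exports anticancer drugs, had 9.29 with butyrate, 7.87 with NaCl and 8.004 with medium, and 8.02 to 8.67 in the fluids. The butyrate difference was 1.29, and all 12 fluids stayed below the butyrate array. At 2% against 0% it differed by 0.29 ± 0.09 and did not pass (adjusted p = 0.0606).

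ABCG2, the breast cancer resistance protein of the apical membrane, had 5.97 with butyrate, 4.47 with NaCl and 3.93 with medium, and only butyrate reached 5. It read 4.97 to 5.52 at 0%, 4.56 to 5.25 at 1% and 4.09 to 5.03 at 2%, with a difference of -0.57 for 2% against 0% that did not pass (adjusted p = 0.0998). ABCC1, which exports glutathione conjugates, varied little, with 8.62 with butyrate, 8.07 with NaCl, 8.35 with medium and 8.61 to 8.97 in the fluids. Its difference of 2% against 0% was -0.03, with a 95% interval of -0.23 to 0.17. A second ABCC1 probe set, at 5 or more on all 15 arrays, had 5.91 with butyrate, 5.63 with NaCl and 5.15 with medium. It read above medium with NaCl, where the set used read below, and its butyrate difference was larger (0.76 against 0.27). ABCC4, an exporter of cyclic nucleotides and prostaglandins, had 9.24 with butyrate, 9.18 with NaCl and 9.95 with medium, and all 12 fluids (9.38 to 9.85) were below medium. ABCC2, the apical conjugate pump, stayed at 2.00 to 2.54 in the fluids and was under 5 on all arrays.

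Of the mitochondrial members only ABCB10, an inner-membrane protein needed for heme synthesis, was measurable. It had 7.58 with butyrate, 8.56 with NaCl and 9.33 with medium, a difference of -1.75 for butyrate and -0.77 for NaCl. Vessels 1 to 4 gave 8.74, 8.18, 8.20 and 8.15 at 0%, 7.69, 7.70, 7.12 and 7.16 at 1%, and 8.25, 7.65, 7.23 and 7.30 at 2%. All 12 fluids lay below medium, and every 1% array lay below every 0% array. ABCB10 fell by 0.71 ± 0.12 at 2% against 0% (adjusted p = 0.00565) and by 0.90 ± 0.12 at 1% against 0% (adjusted p = 0.0145), lower in 4 of 4 vessels for both. The 1% call was lost without vessel 3 at 0% and without vessel 3 or 4 at 1% (adjusted p = 0.0517 to 0.0723). ABCB6 and ABCB8 were under 5 on all arrays.

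Of other heme and iron-sulfur genes 8 were tested at 2% against 0%, of which 1 rose and 1 fell, beside 9.65% and 11.2% of all genes. ALAS1, the first enzyme of heme synthesis, rose by 0.68 ± 0.12 (adjusted p = 0.00609), and FECH, the last, fell by 0.65 ± 0.07 (adjusted p = 0.00125). At 1% against 0% ALAS1 was the only one of the 8 to pass (0.52, adjusted p = 0.0405), beside 4.78% of all genes.

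ABCD3, a fatty acid carrier of the peroxisome membrane, had 11.91 with butyrate, 10.85 with NaCl and 10.89 with medium, and 10.61 to 11.46 in the fluids. The butyrate difference of 1.02 was just past 2-fold, and 2% against 0% gave 0.22 (adjusted p = 0.138). Among other peroxisomal genes 3 of 5 tested rose at 2% against 0%, beside 9.65% of all genes. They were HSD17B4 and ACAA1 of fatty acid oxidation (0.25 and 0.26, adjusted p = 0.0319 and 0.0482) and CAT, catalase (0.22, adjusted p = 0.0448). At 1% against 0% 0 of the 5 passed. ABCD4, which takes part in the release of cobalamin from lysosomes, was 6.57 with butyrate, 7.08 with NaCl and 6.67 with medium. It had 6.45, 6.21, 6.32 and 6.47 at 0%, 6.62, 6.53, 6.53 and 6.61 at 1%, and 6.49, 6.52, 6.80 and 6.70 at 2%. The 2% arrays all lay above the 0% arrays by a narrow margin, with a difference of 0.27 ± 0.08 (adjusted p = 0.0478). This call held in 6 of 21 alternatives, and was lost when any array but vessel 1 at 0% or at 2% was left out (adjusted p = 0.0525 to 0.158).

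The members that act in translation were all measurable, and 1 of 4 fell at 2% against 0%, beside 11.2% of all genes. ABCE1, which splits ribosomes after termination, had 10.05 with butyrate, 11.07 with NaCl and 11.53 with medium. In vessels 1 to 4 it had 10.89, 10.45, 10.42 and 10.23 at 0%, 10.29, 10.08, 10.12 and 9.95 at 1%, and 10.53, 10.12, 9.94 and 10.06 at 2%. All 12 fluids were below both NaCl and medium, and vessel 1 was the highest at each concentration. ABCE1 fell by 0.33 ± 0.08 at 2% (adjusted p = 0.0237) and by 0.38 ± 0.08 at 1% (adjusted p = 0.0376) against 0%, in 4 of 4 vessels for both. The 2% call was lost without vessel 2 or 3 at 0% or vessel 2, 3 or 4 at 2% (adjusted p = 0.0509 to 0.0816), and the 1% call held in 10 of 22 alternatives, lost when vessel 2, 3 or 4 at 0%, any array of 1%, or vessel 2 or 4 at 2% was left out (adjusted p = 0.0605 to 0.137). A second ABCE1 probe set fell as well, by 0.50 at 2% and at 1% (adjusted p = 0.00682 and 0.0293, fitted over all probe sets).

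ABCF2 had 8.39 with butyrate, 9.51 with NaCl and 9.57 with medium, and 8.10 to 8.74 in the fluids, all below medium. The difference was -1.18 for butyrate, and 2% against 0% gave -0.33 (adjusted p = 0.0928). Another ABCF2 probe set, at 5 or more on all 15 arrays, had a butyrate difference of -0.94, which is under 2-fold. It was higher in vessel 1 than in the later vessels (0.47, adjusted p = 0.0118, limma fitted over all probe sets). In that fit the set used did not pass (0.25, adjusted p = 0.145). ABCF3 had 6.88 with butyrate, 7.03 with NaCl and 5.58 with medium, and 5.29 to 6.21 in the fluids. It was thus higher with butyrate and with NaCl than on any fluid array, with differences from medium of 1.30 for butyrate and 1.44 for NaCl. ABCF1, a factor of translation initiation, had 9.29 with butyrate, 10.04 with NaCl and 9.15 with medium, and 9.02 to 9.56 in the fluids. Of 6 other genes of ribosome recycling and translation control 0 passed at 2% against 0%, beside 20.8% of all genes. Of the 6, 1 had an unadjusted p under 0.05, beside 3184 of the 8737 genes, and GCN1 came nearest (-0.30, adjusted p = 0.0741).

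Vessel 1 was then compared with vessels 2 to 4 over the 3 concentrations. It stood apart for 8 of 18 members, 3 higher and 5 lower, beside 34.7% of all genes (19.3% higher, 15.4% lower). The 8 include ABCC3, which passed the filter on low signal only with the vessel 1 arrays counted, so that its call is a description. ABCC3 was 5.81 ± 0.17 in vessel 1 (SD, n = 3) and 4.64 ± 0.57 in the later vessels (n = 9), a difference of 1.18 ± 0.18 (SE, adjusted p = 0.00209). Of the later arrays 6 of 9 were under 5, and with values under 5 set to 5 the difference was 0.73 (adjusted p = 0.00272). ABCB10 (0.60, adjusted p = 0.00455) and ABCE1 (0.42, adjusted p = 0.00442) were also higher in vessel 1. Lower in vessel 1 were ABCG1 with 7.18 ± 0.68 and 8.07 ± 0.35 in the later vessels (-0.88 ± 0.12, adjusted p = 0.00122) and ABCA5 (-0.73, adjusted p = 0.00623). ABCB1 was 10.41 ± 0.04 in vessel 1 and 10.90 ± 0.19 in the later vessels (-0.49 ± 0.09, adjusted p = 0.00475), and it was the only 1 of 18 members whose arrays did not overlap, beside 11.8% of all genes (6.58% higher, 5.2% lower). ABCC5 (-0.22, adjusted p = 0.0281) and ABCD3 (-0.27, adjusted p = 0.0472) passed with smaller differences, but held in 11 and 7 of 20 alternatives, and the direction of ABCC5 turned when a gene's probe sets were averaged (0.15, adjusted p = 0.208). Without concentration in the model 0 of 18 members and 0 of the 8737 genes passed. An unadjusted p under 0.05 was reached by 6 members, without a count of all genes to set beside them. The ACTB 3′ minus 5′ signal was 0.62 to 0.924 in vessel 1 and 0.366 to 0.636 in the later vessels, and its part in these differences was not tested.

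**Figure D5:**
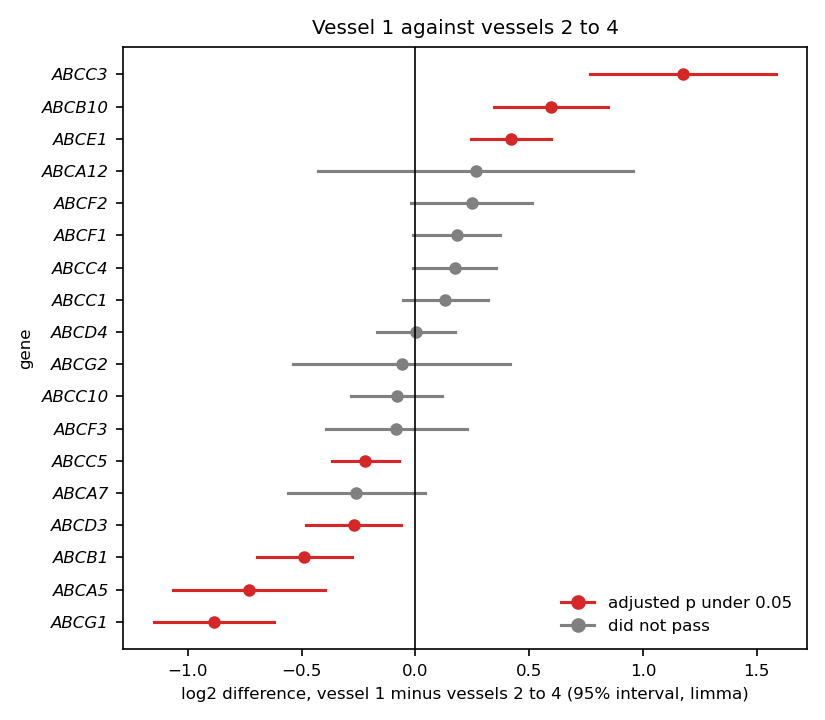
Log2 difference of vessel 1 minus vessels 2 to 4 for 18 members (points) with 95% intervals from limma (bars), red where the adjusted p was under 0.05. ABCC3, ABCB10 and ABCE1 lie to the right (1.18, 0.60 and 0.42) and ABCG1 and ABCA5 to the left (-0.88 and -0.73). Most ABCC3 values of the later vessels were under 5.

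Whether the change with concentration differed between vessels 2 to 4 and vessel 1 was tested as a difference of slopes per 1% polydextrose. It passed for 0 of 18 members, beside 1.17% of all genes (0.343% higher, 0.824% lower). An unadjusted p under 0.05 was found for 3 of the 18 members, beside 1739 of the 8737 genes. ABCA12 came nearest (-0.91 ± 0.24, adjusted p = 0.0956). In vessels 3 and 4 it was lower at 2% than at 0% (differences of -1.44 and -1.52), and in vessel 1 it was higher (0.75). ABCC3 (-0.51, adjusted p = 0.127) and ABCG1 (-0.31, adjusted p = 0.151) did not pass either.

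Genes that share a pathway with the family were tested at 2% against 0%, where 20.8% of all genes passed (9.65% higher, 11.2% lower). An unadjusted p under 0.05 was found there for 3184 of the 8737 genes. The lists are small, so their counts are not read as a result about a pathway. TAP1 and TAP2, family members under another name that carry peptides for antigen presentation, both fell at 2% against 0% (differences of -0.28 and -0.69, adjusted p = 0.0429 and 0.00215). Among 11 measurable regulators of ABC genes, such as PPARD, RXRA, NR1H3 and NFE2L2, 0 passed and 1 had an unadjusted p under 0.05, with PPARD nearest (0.31, adjusted p = 0.0737). In sterol handling 1 of 5 tested genes rose, NPC1, which releases cholesterol from lysosomes (0.51 ± 0.13, adjusted p = 0.0222). Of 3 scaffold proteins of apical transporters EZR rose (0.31, adjusted p = 0.0431), and of 5 glutathione genes GSR, glutathione reductase, fell (-0.33, adjusted p = 0.0102). Neither of 2 tested uptake carriers passed, and 1 had an unadjusted p under 0.05.

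One marker from outside the epithelium was, like ABCA5, under 5 with NaCl and medium and above it elsewhere. COL1A1, a fibroblast collagen, read 8.13 with butyrate, 3.29 with NaCl and 1.37 with medium, and 5.26 to 8.26 in the fluids. At 2% against 0% COL1A1 differed by 0.91 and did not pass (adjusted p = 0.0556), and at 1% against 0% it differed by -0.07, beside 0.26 for ABCA5. The other 3 of 4 fibroblast markers, COL3A1, LUM and PDGFRB, were under 5 on all 15 arrays. A link between COL1A1 and ABCA5 was not tested.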

How the data were processed

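The authors deposited 1 table of log2 values for 54675 probe sets on 15 arrays, normalized with GCRMA per the submitters' processing notes (version and chip description not given in the sources used here). That the deposited values are log2 was inferred from their range. They were not normalized again. Probe sets were named by the platform annotation, and a gene was read from its single-symbol probe set with the highest mean.

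For the fluid arrays limma 3.58.1 (R 4.3.3) fitted concentration and vessel as factors (6 residual degrees of freedom, median residual SD 0.147). The slope comparison added a term. Two-sided p-values were adjusted over 8737 genes by the Benjamini-Hochberg method, with a threshold of 0.05. The fit was checked on simulated data. Single-array comparisons took genes at 6 or more on the brighter side. Where one side was wholly under 5, its value or 5, whichever was larger, took its place, which gives a bound.

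With concentration means taken out, 12 pairs of arrays of the same vessel number correlated with a median of 0.376 (0.024 to 0.781, 10 above 0.1). The labels give the vessel as part of the design, so it stayed as the block. The arrays' number, not a depth, limits the precision. Named with values were members that passed any comparison or 2-fold, the 6 with the highest mean and 10 set by name, plus up to 2 genes of each other list with the smallest p for 2% against 0%. ACAA1 and ABCA12 were named outside this rule, after their values were seen. The members and lists were chosen with earlier results of these data known. Alternatives were low-signal filters, probe set averaging, renormalization, centring, an intensity trend, no block, array subsets, NaCl as control, another fold limit and, added after seeing the data, values under 5 set to 5.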

Additional observations from a re-analysis of the deposited data

Results flagged for a closer look

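Of 54 sets of 4 arrays (18 members at 3 concentrations), 7 held 1 array far from the other 3. The rule's rate of about 1 set in 20 is for 4 replicates, but these are 4 different vessels, and the sets share arrays. The 7 are therefore only listed, with no count over all genes to set beside them. At 2%, the vessel 1 array was lowest for ABCB1 (10.415, others 10.969 to 11.065) and ABCG1 (7.837, others 8.32 to 8.403) and highest for ABCC3 (5.635, others 3.945 to 4.162). At 0%, vessel 1 was highest for ABCB10 (8.736, others 8.145 to 8.195). ABCG2 was lowest in vessel 3 at 2% (4.09, others 4.932 to 5.026) and in vessel 4 at 0% (4.974, others 5.429 to 5.516), and all these values lie near the limit of 5. ABCF2 was lowest in vessel 4 at 0% (8.477, others 8.697 to 8.742). Of the 7, 4 were vessel 1 arrays, the vessel that differed from the rest in the report.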

How the results depend on the processing

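Of called values 7 changed sign under some alternative, 0 of them with quantile renormalization or centring. Of values not called before or after 89 did, 10 of them with one of these scalings (such as ABCC1 at 1% against 0%, from 0.01 to -0.02 with centring). Counts of members called are given below with those of all genes after a slash. Counts at an unadjusted p have no count of all genes beside them. Centring moved differences from medium by -0.22 with butyrate and by -0.07 with NaCl, which left 9 / 2635 past 2-fold with butyrate in place of 11 / 2511. With values under 5 set to 5 (chosen after seeing the data), 7 / 1758 were called for 2% against 0% and 3 / 439 for 1% against 0%. In this setting 0 / 0 were called for 2% against 1%, 8 / 2983 for vessel 1 and 0 / 124 for the slopes. But for 2% against 0% ABCC3 lost its call and ABCG2 gained one (-0.33, adjusted p = 0.0364). For 2% against 0% (7 / 1820 called) 3 / 1370 were called with probe sets averaged, 4 / 863 with only the 8 arrays compared, 11 / 3205 without vessel 1 and 0 / 0 with no replicate block (10 members unadjusted), and leaving out 1 array gave 3 to 11 (11 / 3058 without vessel 1 at 0%, 3 / 656 and 3 / 761 without vessel 2 at 0% and vessel 3 at 2%, 4 / 703, 4 / 909 and 4 / 798 without vessel 3 at 0%, vessel 4 at 0% and vessel 4 at 2%). For 1% against 0% (3 / 418 called) 5 / 1136 were called without vessel 1, 0 / 1 with only the 8 arrays and 0 / 0 with no replicate block (6 members unadjusted), and leaving out 1 array gave 0 to 5, with 0 to 1185 of all genes (5 / 1185 without vessel 1 at 0%, 0 / 22 and 0 / 0 without vessel 3 and vessel 4 at 1%, and 1 member without vessel 2, 3 or 4 at 0%, vessel 1 or 2 at 1% or vessel 2 or 4 at 2%). For 2% against 1% (0 called) leaving out 1 array gave 0 to 2 (2 / 579 without vessel 1 at 0%). For vessel 1 (8 / 3035 called) 4 / 2346 were called with probe sets averaged and 0 / 0 with no replicate block (6 members unadjusted). The slope difference (0 / 102 called) gave 1 / 345 with an intensity trend, and 0 to 1 with 1 array left out (1 / 50 without vessel 2 at 2%). Averaging probe sets, over fewer members compared, left 7 / 1643 past 2-fold for butyrate (11 / 2511 in the report) and 3 / 638 for 0% fluid (6 / 986). It left 3 / 1013 for 1% (7 / 1556) and 4 / 1214 for 2% (8 / 1836). NaCl as the control gave 7 / 2687, 3 / 1672, 3 / 1907 and 5 / 2175. At 1.5-fold NaCl had 6 / 2964 (3 / 1307 in the report). For 0% fluid leaving out 1 array gave 3 to 6 members (3 / 941 without vessel 4). With NaCl as the control the differences reversed for ABCC5 with butyrate (-0.67), 0% (-0.69), 1% (-0.46) and 2% (-0.50), for ABCF3 with butyrate (-0.14) and for ABCG1 at 0% (-0.43), and with probe sets averaged ABCC5 reversed for vessel 1 (0.15). ABCC5, ABCF3 and ABCG1 were themselves at least 2-fold above medium with NaCl. Causes of the other changes were not tested. For 2% against 0% ABCG1 and ABCB10 lost their call only with no replicate block (adjusted p = 0.214 for both), but ABCG1, ABCA5, ABCC3 and ABCD4 were under the signal filter and not fitted with probe sets averaged.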
